A study of Homo sapiens with 6 samples.

Results

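Expression of 10 cell adhesion genes was followed in HL60, an established human promyelocytic leukemia cell line, after treatment with tretinoin (all-trans retinoic acid), a ligand of the retinoic acid receptors that is known to make these cells differentiate toward granulocytes. The genes were CADM1, NINJ1, NINJ2, ICAM1, ICAM2, ICAM3, PECAM1, CD44, CD47 and CD58, and every probe set of the Affymetrix human expression array annotated to exactly 1 of them was taken, which gave 31 of the 22283 probe sets on the array. Cells of both conditions received dimethyl sulfoxide (DMSO) at 0.1% for 5 days. The tretinoin cells also received 1 μmol/l of the drug, and the DMSO cells served as vehicle. Each condition was measured on 3 arrays, which were parallel hybridizations of pooled labeled product, so the spread between arrays and the p-values below measure hybridization of 2 RNA pools and not variation between cultures.

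Most of these molecules belong to the immunoglobulin superfamily and hold cells to each other or to a partner on another cell. The ICAM proteins are ligands of the leukocyte integrins LFA-1 and, for ICAM1, Mac-1, which let granulocytes and monocytes stop on the vessel wall and bind other leukocytes. PECAM1 binds itself at the borders of endothelial cells and on leukocytes, and carries inhibitory motifs that recruit phosphatases. CD58 binds CD2 on T cells, and CD47 binds SIRPA on phagocytes and is known as a signal against being engulfed. CADM1 binds itself and related nectin-like molecules. NINJ1 and its homolog NINJ2 are small membrane proteins without immunoglobulin domains, and NINJ1 is known to rupture the plasma membrane of dying cells. CD44 is a receptor for hyaluronan, a polysaccharide of the cell surroundings, and belongs to the link module family and not to the immunoglobulin superfamily.

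CADM1 and NINJ2 showed the largest rises of the 10 genes, ICAM1, ICAM3, CD58, CD44 and NINJ1 rose by lesser amounts, CD47 rose least, and no probe set of ICAM2 or PECAM1 passed the test. Values are MAS5 signals, the linear summary that Affymetrix software gives for a set of probes. They were multiplied so that the mean of each array equalled that of DMSO replicate 1. Signals below a floor of 20, a baseline the paper calls arbitrary, were set to 20. A probe set was tested with limma when it exceeded 20 on at least 3 of the 6 arrays, and was called when its adjusted p was under 0.05 and its fitted change was at least 1.5-fold. Of the 31 probe sets, 17 were called higher in tretinoin, 7 were tested and not called, and 7 stayed too low to test. Across the array 13.6% of the 13349 probe sets tested were called higher and 13.8% were called lower. None of the 31 was called lower by limma, and 1 was lower at an unadjusted p under 0.05. All 3 tretinoin arrays exceeded all 3 DMSO arrays on 18 of the 24 tested, and did so for 21.7% of all probe sets tested. They all lay below on 1, against 24.3% of all probe sets tested. For 8 of the 10 genes at least 1 probe set was called higher. The median log2 fold change was 1.15 over the 24 adhesion probe sets tested and -0.03 over all probe sets tested. These counts and that median are descriptions only, since the genes were chosen with earlier results of these data known. Some genes also gave several of the 24 probe sets. Of the 24, 2 were at or below 20 on every DMSO array, for NINJ2 and CD58. They entered the test through the tretinoin arrays alone. With no filter, all 31 were tested and 16 were called higher, where 6.38% of 22215 probe sets were called higher. Signals of different probe sets cannot be set against each other, because probes differ in how strongly they bind, so only changes are compared between probe sets.

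**Figure D1:**
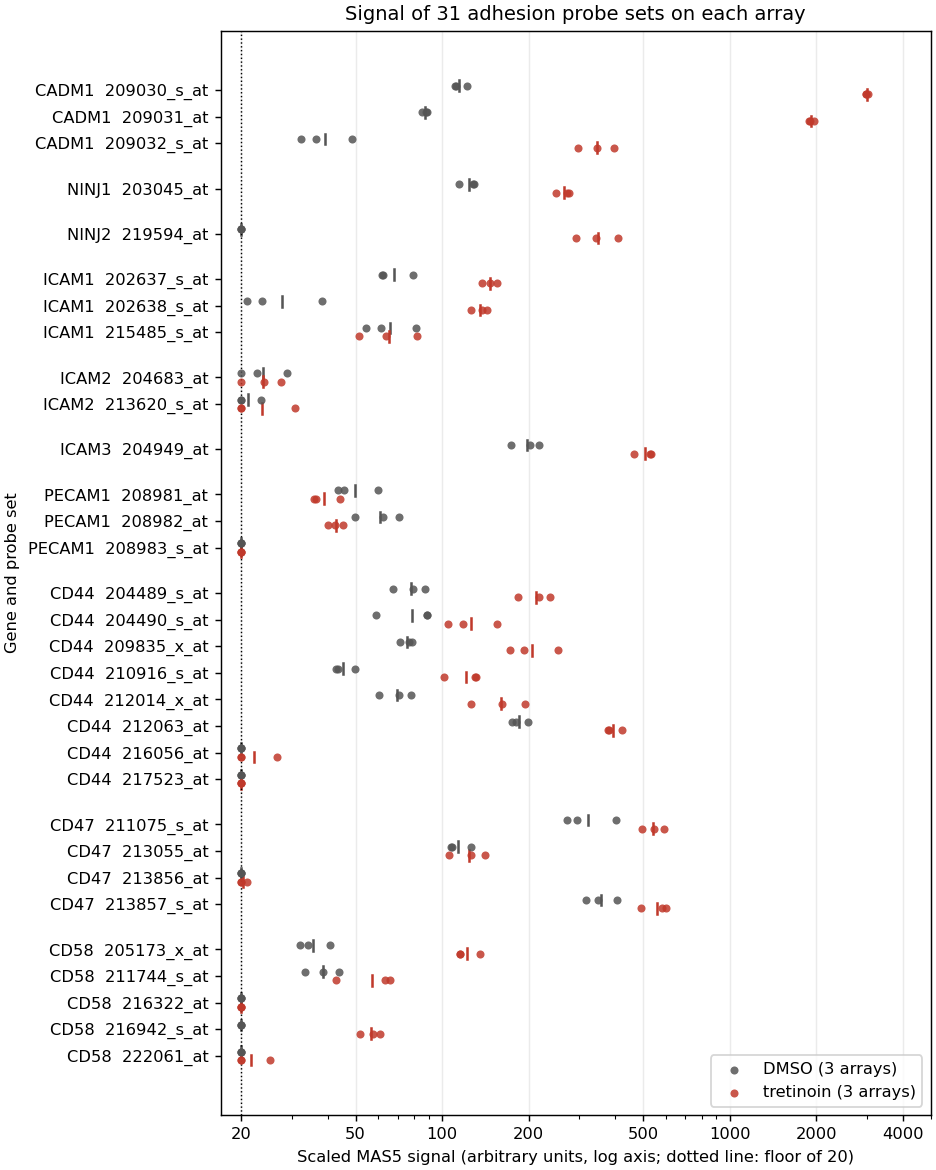
Scaled MAS5 signal (log axis, arbitrary units) of all 31 probe sets on the 3 DMSO arrays (gray) and 3 tretinoin arrays (red). Points are arrays, short bars are condition means, and signals below 20 are drawn at the floor of 20 (dotted line). CADM1, NINJ2, NINJ1 and ICAM3 separate fully between conditions, while the conditions lie over each other for ICAM2.

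CADM1 rose on all 3 of its probe sets. On probe set 209030_s_at the DMSO replicates 1 to 3 gave scaled signals of 111, 111 and 122, and the tretinoin replicates 1 to 3 gave 3039.9, 2975 and 2972. The conditions were far apart, with means of 115 ± 6.19 and 2995 ± 38.5 (SD, n = 3 arrays each), a 26.1-fold rise (limma, log2 fold change 4.71 ± 0.12 SE, adjusted p = 2.9e-06). This probe set was among those the study picked on these same arrays for a bead assay of gene signatures, so its rise is not independent of that choice. The other probe sets were not among them, but those of CADM1 were read on the same arrays for the same gene. Their rises are therefore not independent of that choice either. On 209031_at signals went from 88.5, 87.99 and 84.98 in DMSO to 1906, 1895 and 1959.7 in tretinoin, a 22.03-fold rise, and on 209032_s_at they went from 36.4, 32.4 and 48.5 to 345, 296 and 398, an 8.85-fold rise. No array of 1 condition reached the range of the other on any of the 3. By size of rise they ranked 10, 14 and 54 among the 13349 probe sets tested.

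The bead assay read CADM1 with a pair of oligonucleotides that meet on the DNA strand copied from its transcript. Their gene-specific parts, 20 bases each, are shown because they mark the stretch of CADM1 that the bead assay read. The paper designed such parts against a reference set keyed by RefSeq identifier, where available. That stretch need not be the one the array probes read. The parts are written in lower case as no base is singled out.
CADM1 upstream oligonucleotide: tacccctcccctatccctag
CADM1 downstream oligonucleotide: gcacttaaccaagacaaaaa

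The ninjurins both rose, by very different amounts. NINJ2 on 219594_at was below the floor of 20 on all 3 DMSO arrays and stood at 344, 292 and 409 on tretinoin replicates 1 to 3. Its tretinoin mean of 348 ± 58.3 was 17.4 times the floor, so the rise over DMSO was at least 17.4-fold (limma, adjusted p = 9.9e-06). The floor gave the DMSO arrays no spread, and the probe set entered the test through the tretinoin arrays alone, which limits what that p-value can say. The true size of the rise cannot be given because the DMSO level was set by the floor. NINJ1 on 203045_at went from 114, 128 and 129 in DMSO to 276, 271 and 248 in tretinoin, with no overlap. Its rise was 2.14-fold, from 124 ± 8.61 to 265 ± 14.9 (limma, log2 fold change 1.10 ± 0.13 SE, adjusted p = 0.000733). Each ninjurin is represented by a single probe set, so neither rise has a second set of probes to compare with.

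Sequence just before the start of transcription is shown for genes with a probe set called higher whose window holds a certain hexamer. This hexamer is bound by nuclear receptors, among them the retinoic acid receptors. The RefSeq promoter windows (GRCh38.p14), 250 bases ending at the base before the start, were at hand for 7 of the 10 genes and CADM1, ICAM2 and PECAM1 had none in the table. The hexamer AGGTCA, searched on both strands, was found for NINJ2, CD44 and CD47, that is for 3 of these 7 genes. It was in 4 of their 10 windows, of which NINJ2 gave 2, against 12.1% of all 35116 windows. No share by gene was computed for the background. NINJ1, ICAM1, ICAM3 and CD58 were also called higher, and their windows do not hold the hexamer. All 7 genes with a window thus had a probe set called higher, so no comparison with uncalled genes was possible. Whether the hexamer has a part in any rise was not tested. Capitals mark it, and TGACCT is the same hexamer on the other strand. NINJ2 has 2 windows, and the one at the outermost start (chr12:663446-663695, minus strand) holds the hexamer at positions -238 to -233 and -189 to -184 counted from the start. The inner NINJ2 window (chr12:643637-643886, minus strand) holds it once, at -85 to -80. CD44 (chr11:35138921-35139170, plus strand) holds it at -52 to -47 and CD47 (chr3:108091032-108091281, minus strand) at -220 to -215. These are matches of letters, not binding sites.
NINJ2 outer start: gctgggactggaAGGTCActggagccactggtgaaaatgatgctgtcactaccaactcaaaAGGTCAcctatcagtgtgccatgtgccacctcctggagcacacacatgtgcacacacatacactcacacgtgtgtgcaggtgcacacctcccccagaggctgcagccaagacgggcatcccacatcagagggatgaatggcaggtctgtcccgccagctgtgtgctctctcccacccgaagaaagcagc
NINJ2 inner start: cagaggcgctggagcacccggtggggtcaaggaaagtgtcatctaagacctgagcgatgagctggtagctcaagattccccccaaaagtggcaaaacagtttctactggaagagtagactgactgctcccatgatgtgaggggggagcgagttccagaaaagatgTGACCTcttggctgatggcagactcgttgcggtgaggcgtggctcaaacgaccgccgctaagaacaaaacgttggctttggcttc
CD44: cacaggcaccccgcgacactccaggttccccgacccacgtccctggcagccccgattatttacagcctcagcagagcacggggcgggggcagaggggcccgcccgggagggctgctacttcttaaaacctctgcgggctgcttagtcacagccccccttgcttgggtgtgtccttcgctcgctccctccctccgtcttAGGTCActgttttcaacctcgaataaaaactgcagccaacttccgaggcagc
CD47: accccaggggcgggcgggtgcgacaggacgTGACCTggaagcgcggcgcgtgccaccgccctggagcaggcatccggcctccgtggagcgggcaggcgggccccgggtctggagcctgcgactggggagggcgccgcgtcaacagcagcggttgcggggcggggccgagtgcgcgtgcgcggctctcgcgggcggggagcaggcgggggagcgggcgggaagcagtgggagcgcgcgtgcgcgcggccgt

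The integrin ligands ICAM1 and ICAM3 were higher in tretinoin, and ICAM2 stayed near the floor. ICAM1, which inflammatory cytokines are known to induce, was called on 2 of its 3 probe sets. On 202638_s_at it went from 38.3, 21.02 and 23.5 on DMSO replicates 1 to 3 to 143, 126 and 138 on tretinoin replicates 1 to 3, a 4.91-fold rise from 27.6 ± 9.33 to 136 ± 8.79 (limma, log2 fold change 2.34 ± 0.23 SE, adjusted p = 0.000411). On 202637_s_at it went from 62.1, 79.5 and 62.0 to 147, 155 and 138, a 2.16-fold rise (adjusted p = 0.00144). On 215485_s_at signals were 54.5, 61.4 and 81.0 in DMSO and 51.2, 81.7 and 63.5 in tretinoin, and the conditions overlapped entirely (log2 fold change -0.01, 95% interval -0.54 to 0.52, adjusted p = 0.983). That interval does not reach the change of either other ICAM1 probe set.

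The window before the ICAM1 start (chr19:10270870-10271119, plus strand) is shown because it holds letters of known promoter elements. Capitals mark, in order, a TTCNNNGAA element of the kind bound by STAT factors at -75 to -67 and the letters of a TATA box, TATAAA, at -30 to -25. Searched on both strands, these occur in 6.57% and 10.7% of all 35116 windows, and among the 7 genes with a window ICAM1 alone holds either. These too are matches of letters, not binding sites. Whether either has a part in the ICAM1 rise was not tested.
ICAM1: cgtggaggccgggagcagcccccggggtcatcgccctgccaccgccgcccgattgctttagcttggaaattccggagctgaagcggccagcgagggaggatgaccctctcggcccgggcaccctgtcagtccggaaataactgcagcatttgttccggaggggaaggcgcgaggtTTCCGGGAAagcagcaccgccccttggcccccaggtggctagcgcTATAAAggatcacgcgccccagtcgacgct

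ICAM3, the ICAM found on resting leukocytes, went from 202, 173 and 218 in DMSO to 467, 533 and 529 in tretinoin on 204949_at. The conditions did not overlap, and the rise was 2.58-fold, from 198 ± 22.7 to 509 ± 36.9 (limma, log2 fold change 1.37 ± 0.14 SE, adjusted p = 0.000482). ICAM2, which endothelial cells and some leukocytes carry constitutively, had signals of 28.8 and 22.8 on DMSO replicates 1 and 2 and below 20 on replicate 3, and 24.1, below 20 and 27.6 on tretinoin replicates 1 to 3 (204683_at). At that level no change was detectable (log2 fold change 0.01, 95% interval -0.44 to 0.46, adjusted p = 0.988). Its other probe set, 213620_s_at, exceeded 20 on 1 array of each condition and was not tested.

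PECAM1 was the only gene of the 10 with lower means in tretinoin on each tested probe set, and neither passed the test. On 208982_at it stood at 62.2, 49.6 and 71.0 in DMSO and 42.5, 40.1 and 45.2 in tretinoin, without overlap (log2 fold change -0.50, 95% interval -0.89 to -0.11, adjusted p = 0.0552). Without DMSO replicate 2, it passed as lower (log2 fold change -0.64, adjusted p = 0.0282). With all arrays kept, its limma adjusted p was 0.0419 with equal trimmed means and 0.0237 with a floor of 40. It was 0.0382 with signals above 20 required on all 6 arrays. Under these settings the change stayed below 1.5-fold, so it was not called. On 208981_at it stood at 45.6, 43.5 and 60.0 in DMSO and 44.1, 36.3 and 35.95 in tretinoin, and the conditions overlapped (log2 fold change -0.35, 95% interval -0.76 to 0.06, adjusted p = 0.175). Probe set 208983_s_at did not exceed 20 on any array. Both intervals lie below the rises measured for CADM1, NINJ1, NINJ2 and ICAM3.

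CD44 was measured by 8 probe sets, of which 6 were tested and 5 were called higher. Across those 5 the rises were alike, from 2.13-fold to 2.73-fold. On 204489_s_at the signal went from 87.2, 67.7 and 78.99 in DMSO to 237, 183 and 218 in tretinoin, a 2.73-fold rise from 78.0 ± 9.80 to 213 ± 27.4 (limma, log2 fold change 1.45 ± 0.16 SE, adjusted p = 0.000646). On 212063_at, the CD44 probe set with the smallest standard error, it went from 181, 175 and 199 to 422, 378 and 381, a 2.13-fold rise (log2 fold change 1.09 ± 0.13 SE, adjusted p = 0.00077). No DMSO array reached a tretinoin array on any of the 6 tested probe sets. The exception to the call was 204490_s_at, at 88.8, 88.9 and 58.7 in DMSO and 105, 156 and 118 in tretinoin (log2 fold change 0.69 ± 0.23 SE, adjusted p = 0.058). It passed under 5 alternative settings, with adjusted p down to 0.0234. The remaining 216056_at and 217523_at exceeded 20 on at most 1 array.

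CD47 gave the smallest rises that were called. On 211075_s_at it went from 294, 272 and 402 in DMSO to 591, 496 and 543 in tretinoin, a 1.68-fold rise (limma, log2 fold change 0.77 ± 0.18 SE, adjusted p = 0.0162). On 213857_s_at it went from 317, 349 and 406 to 583, 493 and 602, a 1.57-fold rise (log2 fold change 0.65 ± 0.15 SE, adjusted p = 0.0163). The conditions did not overlap on either. Both calls were lost without scaling of the arrays (adjusted p = 0.165 and 0.269) and when any of DMSO replicates 1 or 2 or tretinoin replicates 1 or 3 was left out (adjusted p = 0.0505 to 0.0591). On 213055_at signals were 108, 126 and 107 in DMSO and 106, 126 and 141 in tretinoin, and overlapped (log2 fold change 0.12, 95% interval -0.24 to 0.48, adjusted p = 0.616). Probe set 213856_at was near the floor and not tested.

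CD58 was higher on 2 of its 3 tested probe sets. On 205173_x_at it went from 32.0, 40.6 and 34.0 in DMSO to 116, 115 and 136 in tretinoin, a 3.44-fold rise from 35.6 ± 4.50 to 122 ± 11.6 (limma, log2 fold change 1.78 ± 0.15 SE, adjusted p = 0.000202). On 216942_s_at it was below 20 on every DMSO array and at 60.9, 57.4 and 51.7 in tretinoin, at least 2.83-fold higher than in DMSO. With a floor of 40 the fitted change there fell below 1.5-fold and the call was lost. On 211744_s_at it stood at 43.9, 33.4 and 38.4 in DMSO and 63.1, 65.7 and 42.6 in tretinoin, where tretinoin replicate 3 lay within the DMSO range (log2 fold change 0.55, 95% interval 0.06 to 1.04, adjusted p = 0.0857). Without tretinoin replicate 3 it passed (log2 fold change 0.75, adjusted p = 0.0258). The other 2 CD58 probe sets exceeded 20 on at most 1 array.

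**Figure D2:**
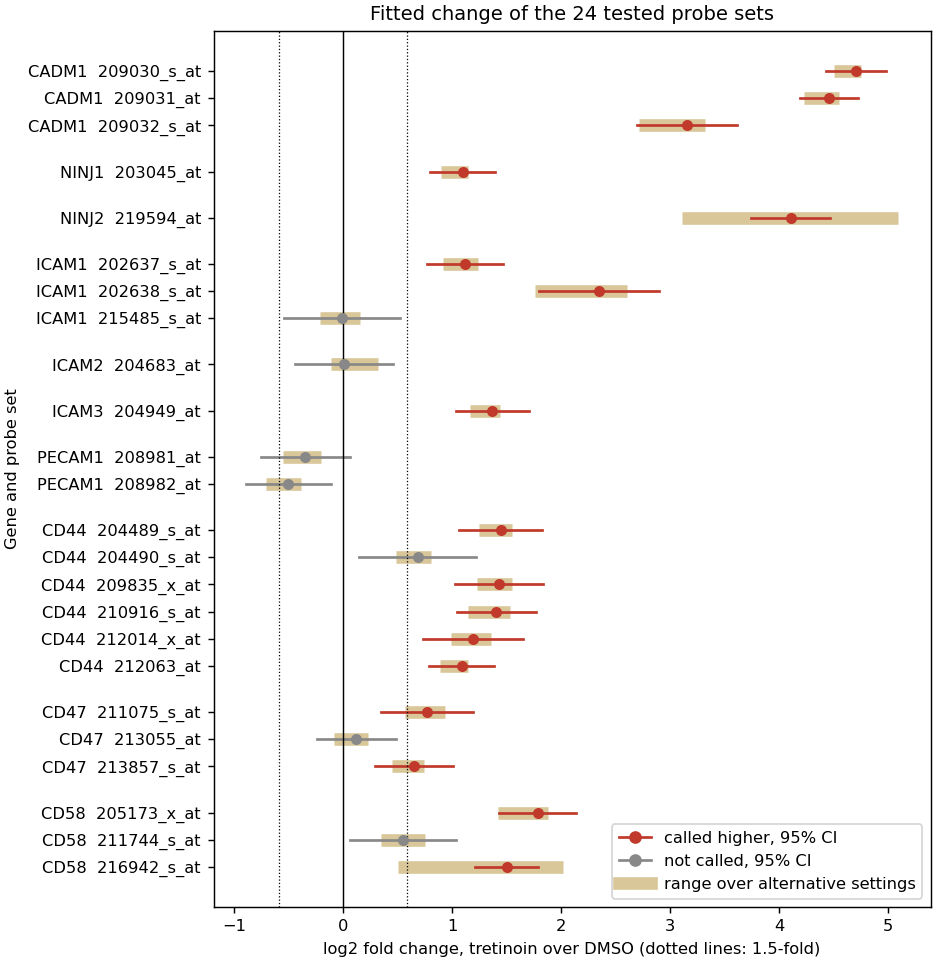
Log2 fold change, tretinoin over DMSO, of the 24 tested probe sets with its 95% interval from limma (red where called higher, gray where not called). Tan bars give the range over the alternative settings and dotted lines mark 1.5-fold. NINJ2 and 216942_s_at of CD58 have the widest tan bars, as their DMSO signals are set by the floor, and of the 3 CD47 points 2 lie just beyond 1.5-fold and 213055_at lies inside it.

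Fitted changes differed between probe sets of the same gene. For the 6 genes with several tested probe sets, the largest and the smallest change are set side by side as a description with no test, since each pair was picked for its values on these same arrays. An exact permutation test over the 6 arrays, which cannot give a p below 0.10, was run on these pairs and nothing is drawn from it. The gap was widest for ICAM1, where the ratio of tretinoin to DMSO on 202638_s_at was 5.11 times that on 215485_s_at. It was 2.93 times for CADM1, between 209030_s_at and 209032_s_at, which both rose. It was 2.35 times for CD58, 1.70 times for CD44, 1.57 times for CD47 and 1.11 times for PECAM1. Probe sets with the suffix s or x share probes with related transcripts or sequences, which limits how far they report a single transcript.

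**Figure D3:**
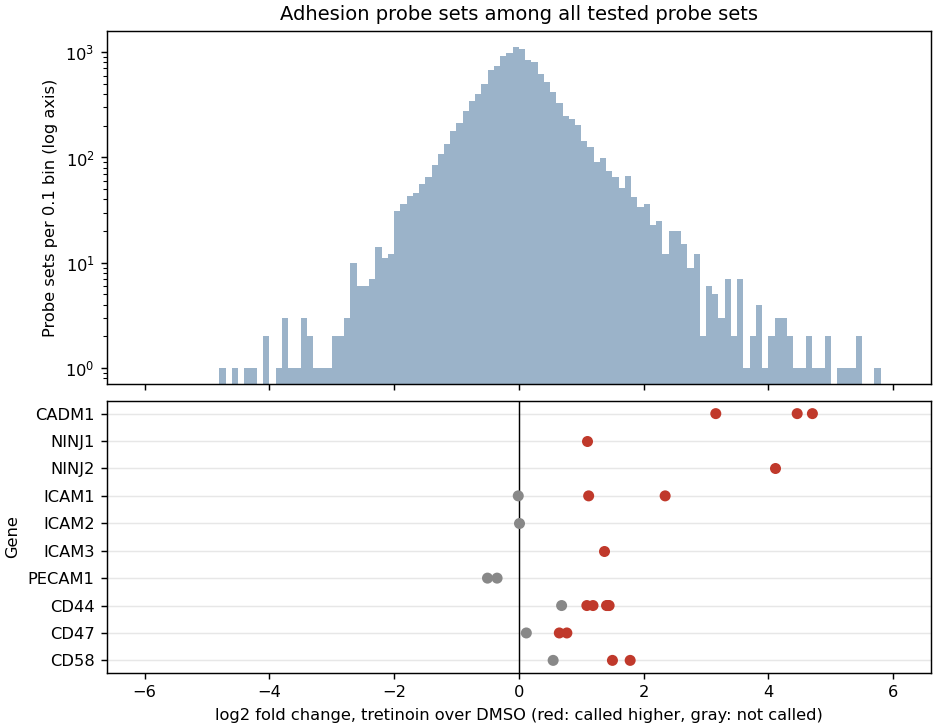
Distribution of log2 fold changes (tretinoin over DMSO) of all tested probe sets (upper panel, counts on a log axis) above those of the tested adhesion probe sets by gene (lower panel, red where called higher and gray where not called). CADM1 and NINJ2 lie in the thin right tail, and PECAM1 lies left of 0.

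Partners of these molecules were taken as 4 lists of genes, each gene shown by its brightest tested probe set. The lists were chosen with earlier results of these data known. They count genes, whereas the shares for the array count probe sets, so comparisons with those shares are descriptions only. Of 13 measured adhesion partners, 7 were called higher and none lower by limma, with 1 lower at an unadjusted p under 0.05. The list median log2 fold change was 0.74. All probe sets tested gave 13.6% higher, 13.8% lower and a median of -0.03. The 7 called higher fell to 3 with signals above 20 required on all 6 arrays. ITGB2, the beta chain shared by LFA-1 and Mac-1, went from 561 ± 39.0 to 2052 ± 49.9, a 3.66-fold rise (SD, n = 3, limma adjusted p = 8.61e-05). ITGAM, the alpha chain of Mac-1, rose 6.13-fold on its brightest probe set and was not called on its other. ITGAL, the alpha chain of LFA-1, had means of 86.7 ± 7.18 in DMSO and 89.9 ± 11.1 in tretinoin, with overlapping arrays, and was not called (adjusted p = 0.842). The receptor of CD47, SIRPA, rose 2.52-fold from 132.8 ± 12.0 to 334 ± 30.4 (adjusted p = 0.000469), a larger rise than that of CD47 itself by fitted value, a difference that was not tested. THBS1, thrombospondin, another ligand of CD47, was at least 41.4-fold higher on its brightest probe set and was called on 4 of its 5 tested probe sets. ITGAV, an integrin alpha chain, was at least 3.56-fold higher. The filter on all 6 arrays left the probe sets shown for THBS1, ITGAV, SIRPB1 and ITGB3 untested, as each was below 20 on at least 1 DMSO array. ITGB3 kept its call under 6 of the 20 alternatives, and 2 could not test it. None of its 3 other tested probe sets was called higher. CD2, the partner of CD58 on T cells, stayed between 22.3 and 37.1 in DMSO and was not called (adjusted p = 0.843).

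Of 12 measured genes of the hyaluronan and CD44 axis, 2 were called higher, 1 lower and 9 neither (list median log2 fold change 0.16). These shares lie near the 13.6% and 13.8% of all probe sets tested. MMP14, a membrane protease that can cleave CD44, rose 1.90-fold from 128 ± 9.90 to 244 ± 17.6 (limma adjusted p = 0.00179) and was called on all 4 of its probe sets. STAB2, a scavenger receptor for hyaluronan, stood at 31.5 to 38.1 in tretinoin against 25.8 or less in DMSO, and its call was lost under 9 of the alternatives. HMMR, a hyaluronan-binding protein that is best known for its role at the mitotic spindle, was 1.64-fold lower, from 150.0 ± 23.8 to 91.3 ± 13.8 (adjusted p = 0.0209). Its other tested probe set was not called, and this call was lost without DMSO replicate 1, DMSO replicate 2 or tretinoin replicate 3.

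Of 18 measured cytoplasmic partners, 4 were called higher, 4 lower and 10 neither (list median log2 fold change 0.01), where all probe sets tested gave 13.6% higher and 13.8% lower. PTPN6, the SHP-1 phosphatase that binds inhibitory motifs such as those of PECAM1 and SIRPA, rose 2.43-fold from 456 ± 28.2 to 1108 ± 89.9 (limma adjusted p = 0.000432). INPP5D, the lipid phosphatase SHIP-1, rose 1.69-fold, MPP1, a palmitoylated scaffold of the membrane skeleton, rose 1.89-fold, and IQGAP1, a scaffold of the actin cytoskeleton, rose 2.02-fold. The call of IQGAP1 was lost without DMSO replicate 1 or 2 or tretinoin replicate 1 or 3, and that of INPP5D without scaling. Of the ERM proteins, which tie CD44 and the ICAM tails to actin, EZR (ezrin) fell from 76.6 ± 6.73 to 23.2 ± 2.78, at least 3.30-fold lower as tretinoin replicate 3 was below 20 (adjusted p = 0.000221), and all 4 of its tested probe sets were called lower. RDX (radixin) was 1.52-fold lower on 1 of its 2 tested probe sets, and that call was lost without DMSO replicate 2 or 3 or tretinoin replicate 2 or 3. MSN (moesin) stood at 635 ± 42.8 and 616 ± 52.9 and was not called (adjusted p = 0.832). ACTN4, an actin crosslinker, and BNIP3, a mitochondrial protein, were 1.58-fold and at least 1.66-fold lower, and each call was lost when any of several single arrays was left out. The other tested probe set of BNIP3 was not called.

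Among other immunoglobulin-type adhesion molecules, 4 of 23 measured were called higher and none lower by limma, with 2 lower at an unadjusted p under 0.05 (list median log2 fold change 0.21). The share called higher lies near the 13.6% of all probe sets tested. CD86, a ligand of the T cell receptors CD28 and CTLA4, rose 6.28-fold from 43.1 ± 6.90 to 271 ± 25.9 (adjusted p = 7.2e-05). ICAM4, whose gene lies between those of ICAM1 and ICAM3, was below 20 on every DMSO array and at 47.8, 33.5 and 30.3 in tretinoin, at least 1.86-fold higher. SLAMF7 was at least 1.96-fold higher and CD84 1.54-fold higher, both receptors of the SLAM family. Of the 4 tested probe sets of CD84, 2 were called higher. The calls of ICAM4 and SLAMF7 were lost with no filter, and that of CD84 without DMSO replicate 1 or tretinoin replicate 2.

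**Figure D4:**
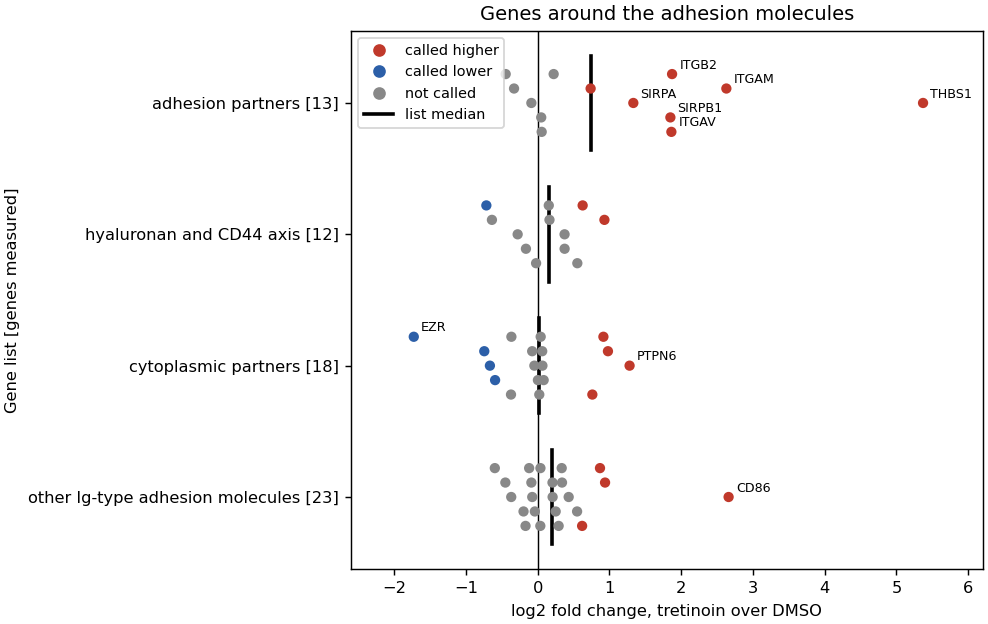
Change of every measured gene in the 4 partner lists, as log2 of tretinoin over DMSO, with the number measured in brackets. Points are genes, red where called higher, blue where called lower and gray where not called, and black bars are list medians. THBS1 lies far to the right among the adhesion partners and EZR far to the left among the cytoplasmic partners.

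The depth of an array does not apply as for counts. Arrays of a condition share a pool of labeled product, so they measure the precision of hybridization and not variation between cultures. Mean deposited signal ran from 91.3 to 152, and 54.9% to 60.1% of probe sets exceeded 20 on each array after scaling. Correlations of log2 signal ran from 0.968 to 0.981 within a condition and from 0.899 to 0.905 between conditions. Among markers fixed for the cell types a culture could hold, those of promyelocytes, of neutrophil maturation and of monocytes and macrophages changed. All 5 azurophil granule markers of promyelocytes were called lower, with summed signal from 3296 to 3815 in DMSO and from 171 to 208 in tretinoin. All 6 neutrophil maturation markers were called higher (summed signal 568 to 611 against 3259 to 3798), as were all 4 measured markers of monocytes and macrophages (139.7 to 162 against 1624 to 1797). Their part in the results above was not tested, and in such bulk cultures a changed share of cells cannot be told apart from changed RNA per cell. The 5 endothelial markers with a probe set, among them CDH5 and VWF, were at or below 20 on all 6 arrays (summed signal 28.0 to 36.8 in DMSO and 15.2 to 45.8 in tretinoin), and none of 3 measured lymphocyte markers, 4 of erythroid cells and platelets or 3 of epithelium and fibroblasts was called by limma in either direction.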

How the data were processed

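RNA of HL60 cells was profiled on Affymetrix human expression arrays, 3 for DMSO and 3 for tretinoin, and groups were taken from the sample titles. The authors deposited linear MAS5 signal intensities, before the scaling and floor of 20 that their methods describe. The MAS5 version is not given in the sources used here. Gene symbols came from the platform annotation, which lists a single symbol for 19071 of 22283 probe sets, several for 1043 and none for 2169.

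Arrays were scaled by factors of 0.820 to 1.36 to the mean of DMSO replicate 1, a floor of 20 was applied, and limma 3.58.1 in R 4.3.3 was run on the log2 scale (lmFit, eBayes, a mean per condition, Benjamini-Hochberg over all tested probe sets). Control probe sets entered the scaling but not the tests. Folds are ratios of condition means, and are lower bounds where an array of the lower condition is at the floor. A gene of a list is shown by the tested probe set with the highest mean signal, and the genes named are the 4 largest rises and falls called in each list and fixed binding partners. CD2, MSN and ITGAL are such partners. ITGB3 and SIRPB1 are named in addition, for limits of their calls. The fit was tested on simulated data, with changes planted only in probe sets far above the floor in DMSO. That simulation does not speak to probe sets of low signal. Members and lists were chosen with earlier results of these data known. Replicate numbers did not pair the arrays: deviations of same-numbered arrays correlated at -0.03, -0.01 and 0.07. Alternatives were 4 other scalings, floors of 10 and 40, an offset of 16, 2 other filters, 2 variance models, a replicate block, other fold minimums and each array left out. Python 3.11.15, pandas 2.3.3 and scipy 1.17.1 were used.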

Additional observations from a re-analysis of the deposited data

How the results depend on the processing

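Of the 17 adhesion probe sets called higher, 14 kept their call under every one of the 20 alternatives in which they were tested, and no direction turned. NINJ2 could not be tested without any of the tretinoin arrays or with signals above 20 required on all 6 arrays. Leaving out single arrays gave 13 to 17 called higher and 0 to 1 called lower, the 1 being PECAM1 without DMSO replicate 2. With the replicate block, 17 were called higher and 0 lower, but the numbers did not pair the arrays. Without scaling, the median change of all probe sets moved from -0.03 to -0.21. The fitted log2 change of NINJ2 was 4.11, and 5.09, 3.11 and 3.89 with a floor of 10, a floor of 40 and an offset of 16.

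Lists were less stable. Adhesion partners called higher fell from 7 to 3 with signals above 20 required on all 6 arrays. That filter left the probe sets shown for THBS1, ITGAV, SIRPB1 and ITGB3 untested, as each was below 20 on at least 1 DMSO array. The cause of the other moves was not tested. In the hyaluronan list 1 gene was called higher without scaling, with a floor of 40, an offset of 16, the filter on all 6 arrays, trend with robust, or the replicate block, and 0 with a 2-fold minimum, 3 with no fold minimum, and 1 to 3 when arrays were left out. Called lower there were 2 without scaling, with equal medians, equal trimmed means, quantile normalization or the filter on all 6 arrays, 0 with no filter or a 2-fold minimum, and 0 to 2 when arrays were left out. Cytoplasmic partners called higher were 2 without scaling and 1 with a 2-fold minimum. Called lower they were 2 with a floor of 10, an offset of 16, no filter or the filter on all 6 arrays, 1 with a 2-fold minimum, and 1 to 3 when arrays were left out. Other immunoglobulin-type molecules called higher were 2 with a floor of 40, no filter or the filter on all 6 arrays, 1 with a 2-fold minimum, and 2 to 4 when arrays were left out, and 1 was called lower without scaling. Signals near or below 20 limited ICAM2 and the 7 untested probe sets.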
